A study of Sus scrofa with 6 samples.

Results

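Cells make cholesterol from acetyl-CoA in a long chain of reactions, the mevalonate and sterol pathway, and the 8 genes HMGCS1, MVD, IDI1, FDPS, FDFT1, SQLE, LSS and DHCR7 each encode an enzyme of that chain. They were chosen by name with earlier results of these data known, and 7 of the 8 were analysed among the 30477 genes of the series. LSS, the cyclase that turns epoxidized squalene into lanosterol, is not analysed here. Early in the pathway HMGCS1 provides the precursor of mevalonate, MVD and IDI1 then provide the activated isoprene units, and FDPS joins these into farnesyl diphosphate, which is also used for coenzyme Q, dolichol and the prenylation of proteins. FDFT1 makes squalene and so commits the chain to sterols, SQLE adds the oxygen of the later hydroxyl group, and DHCR7 is one of the last reductases before cholesterol. The genes are classic targets of the sterol-sensing transcription factor SREBP2, which is held in the endoplasmic reticulum when cell cholesterol is high and is released when it is low, so that in many cells they are read together.

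Abdominal aortas of male Wuzhishan miniature pigs, a small breed used as a model of human arterial disease, were compared between 3 pigs fed normal chow (the NC group) and 3 pigs whose feed was rich in fat, cholesterol and fructose (the HFCF group), each for 6 months. The labels give an age of 3 to 4 months for both groups, while the methods of the study give an older age at purchase. No genotype or drug separated the groups, and each pig gave 1 library of total RNA of abdominal aorta, in which cell types were not separated. Levels are in FPKM, fragments scaled to exon length and to the mapped reads of the library, which corrects for gene length and allows levels of different genes to be set side by side. Differences are log2 fold changes of FPKM + 0.1, HFCF minus NC, with the adjusted p of limma over all 15384 tested genes. Such values understate the change of low genes.

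The contractile smooth muscle markers ACTA2 and MYH11 stood at 3359 FPKM or more and 823.8 FPKM or more in every library. Such levels go with an artery wall but do not single out the abdominal aorta. Cell type markers differed between the groups. All 9 macrophage markers measured were higher in the HFCF group by limma, with a summed level of 38.1 to 40.2 FPKM in the NC pigs and 391.6 to 994.7 FPKM in the HFCF pigs, while 6 of 8 smooth muscle markers were lower, with sums of 15914 to 22729 and 7997 to 12892 FPKM. In 16 alternative settings the call was kept in 3 for MRC1, 14 for CD14 and 16 for each other macrophage marker. For the 6 smooth muscle markers it was kept in 9 (ACTA2) to 16. Of the other marker lists, 3 of 8 T cell and 1 of 8 fibroblast genes were higher, and 0 of 7 endothelial and 0 of 6 Schwann cell genes passed. The T cell genes that passed, CD2, CD8A and TRAT1, peaked at 0.130, 0.140 and 0.035 FPKM in the NC pigs. They kept their calls in 14, 3 and 10 of 15 alternatives. In bulk tissue, fewer cells of a type and less RNA per cell cannot be told apart. Genes of the mitochondrial genome took 4.65% to 6.93% of the summed FPKM in the NC libraries and 9.02% to 13.4% in the HFCF libraries. Over all tested genes, 22.8% had a higher and 6.16% a lower level with the HFCF diet at an adjusted p under 0.05 (3505 and 948 genes), and after quantile normalization the counts were 1748 and 1782. The median log2 fold change of all genes was 0.32 rather than 0, and it was -0.07 after quantile normalization.

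Of the 7 enzymes, 3 were lower and 1 was higher in the HFCF group at an adjusted p under 0.05 in limma. IDI1, SQLE and DHCR7 fell, with NC means 3.37, 3.59 and 3.68 times the HFCF means. FDPS, which lies between IDI1 and SQLE in the chain, was 1.38 times its NC mean. HMGCS1, MVD and FDFT1 did not pass the test. Among all tested genes 6.16% were lower and 22.8% were higher by the same test. Against these, 3 of 7 lower is a larger share, and 1 of 7 higher is not. But the enzymes were chosen with earlier results of these data known, so the share is no test of them. Enzymes of a pathway are also not independent of each other, and no list test was made. The thresholds of the study, a mean above 2 times or below 0.5 of the NC mean with an unadjusted p under 0.05, were also applied. The p was that of limma here, so the calls are not those of the study itself. By them the same 3 were lower, beside 4.82% of all genes, and 0 were higher, beside 20.7%. The median log2 fold change of the 7 was -0.31, and 6 of the 7 were negative, as were 34.3% of all tested genes.

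**Figure D1:**
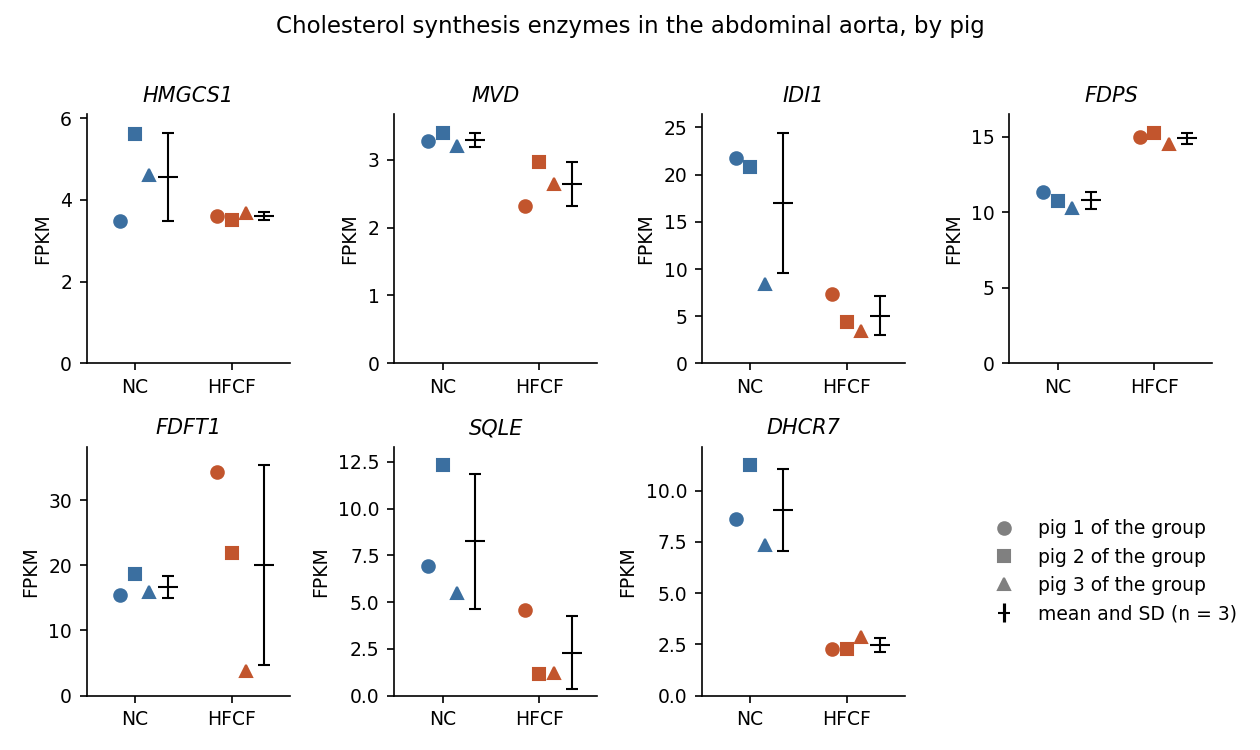
FPKM (y axis, linear and starting at 0) of the 7 enzymes in each NC pig (blue) and HFCF pig (orange), in pathway order, with symbols for pig 1, 2 and 3 of each group and the mean with SD (n = 3) in black. In MVD, IDI1, SQLE and DHCR7 all HFCF points lie below all NC points, in FDPS above them, and FDFT1 spans 3.84 to 34.4 FPKM within the HFCF group. Of all tested genes, 12.1% lay wholly below and 36.1% wholly above in the same way.

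The first enzyme of the set, HMGCS1 (ENSSSCG00000016872), condenses acetyl-CoA with acetoacetyl-CoA to HMG-CoA. It stood at 3.48, 5.62 and 4.60 FPKM in the NC pigs and at 3.61, 3.50 and 3.69 FPKM in the HFCF pigs. The lowest value of all was that of the first NC pig, so the groups overlapped, and the HFCF pigs lay much closer together (SD 0.094) than the NC pigs (SD 1.07). The log2 fold change was -0.31 with a 95% interval of -0.82 to 0.20 (adjusted p = 0.318, limma), and it passed the test only after quantile normalization (-0.76, adjusted p = 0.0351). MVD (ENSSSCG00000034905) removes carbon dioxide from mevalonate diphosphate to give isopentenyl diphosphate. Its values were 3.28, 3.39 and 3.19 FPKM in the NC pigs and 2.31, 2.96 and 2.64 FPKM in the HFCF pigs. The HFCF values all lay below the NC values, as was the case for 12.1% of all tested genes, but the step between them was small. The log2 fold change of MVD was -0.31, with a 95% interval of -0.76 to 0.13 (adjusted p = 0.246, limma). It passed the test after median-ratio scaling (-0.66, adjusted p = 0.0406) and after quantile normalization (-0.84, adjusted p = 0.033).

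IDI1 (ENSSSCG00000029066) interconverts isopentenyl and dimethylallyl diphosphate and so supplies the starter unit of every longer isoprenoid. It was the most abundant of the 7 in the first and second NC pigs, at 21.8 and 20.8 FPKM, and stood at 8.44 FPKM in the third. The HFCF pigs had 7.35, 4.35 and 3.42 FPKM. The HFCF pigs all lay below the NC pigs, as in 12.1% of all tested genes. Yet the third NC pig lay close to the first HFCF pig and far from the other NC pigs. IDI1 fell by 1.69 on the log2 scale (SE 0.43, adjusted p = 0.0269, limma). The call was lost, with adjusted p from 0.0727 to 0.101, when NC pig 1 or 2 or HFCF pig 2 or 3 was left out, and the log2 fold change was then between -1.62 and -1.45.

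FDPS (ENSSSCG00000006512) builds farnesyl diphosphate, the branch point between sterols and other isoprenoids. Its values were 11.3, 10.7 and 10.3 FPKM in the NC pigs and 14.9, 15.2 and 14.5 FPKM in the HFCF pigs. Both groups were tight, and every HFCF pig lay above every NC pig, as was the case for 36.1% of all tested genes. FDPS rose by a log2 fold change of 0.46 (SE 0.13, adjusted p = 0.0371, limma), or 0.14 more than the all-gene median. Its call was lost in 12 of 16 alternatives, among them all 3 planned scalings and each library left out, with adjusted p up to 0.587. The sign stayed positive, which with a library left out was fixed in advance by the lack of overlap.

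FDFT1 (ENSSSCG00000026044), squalene synthase, was even among the NC pigs, at 15.5, 18.6 and 16.0 FPKM, and spread widely among the HFCF pigs, at 34.4, 21.9 and 3.84 FPKM. The first and second HFCF pigs lay above, and the third below, every NC pig. The log2 fold change was -0.22 with an SE of 0.73 (adjusted p = 0.844, limma), so a difference of 2-fold in either direction was within the error. With the third HFCF pig left out it was 0.72 (adjusted p = 0.0745). The table lists 7 transcripts for this gene, and how fragments were shared among them is not known.

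SQLE (ENSSSCG00000005970), squalene epoxidase, catalyses the first oxygen-dependent step and is a known point of control of the pathway. It stood at 6.95, 12.3 and 5.49 FPKM in the NC pigs and at 4.56, 1.14 and 1.21 FPKM in the HFCF pigs. HFCF pigs 2 and 3 were far below the NC group, and the first HFCF pig was just under the lowest NC pig. SQLE fell by 2.01 on the log2 scale (SE 0.56, adjusted p = 0.0352, limma). Over 16 alternatives the adjusted p of SQLE ranged from 0.00949 to 0.110, and the call was lost when any library other than the first HFCF pig was left out. Leaving out that pig moved the log2 fold change to -2.63.

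DHCR7 (ENSSSCG00000021181), which reduces 7-dehydrocholesterol to cholesterol, had the firmest difference of the 7. Its values were 8.61, 11.2 and 7.34 FPKM in the NC pigs and 2.28, 2.26 and 2.85 FPKM in the HFCF pigs. The groups were far apart, and the 3 HFCF pigs were nearly alike. DHCR7 fell by 1.82 on the log2 scale (SE 0.22, adjusted p = 0.00231, limma), which is -2.14 relative to the median of all genes. The call was kept in all 16 alternatives, with adjusted p between 0.00172 and 0.0168.

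The order of the enzymes by level was not the same in the groups. In the NC group the means ran from IDI1 (17.0 ± 7.42 FPKM, SD, n = 3) and FDFT1 (16.7 ± 1.71) through FDPS (10.8 ± 0.54), DHCR7 (9.07 ± 1.99) and SQLE (8.25 ± 3.60) to HMGCS1 (4.57 ± 1.07) and MVD (3.29 ± 0.10). IDI1 and FDFT1 did not differ beyond their spread, nor did FDPS, DHCR7 and SQLE. In the HFCF group FDFT1 (20.0 ± 15.3 FPKM, SD, n = 3) and FDPS (14.9 ± 0.36) led, followed by IDI1 (5.04 ± 2.05) and HMGCS1 (3.60 ± 0.09), and MVD (2.64 ± 0.32), DHCR7 (2.46 ± 0.33) and SQLE (2.30 ± 1.95) lay together within their spread. The share of FDPS in the summed FPKM of the 7 enzymes was 13.0% to 18.6% in the NC pigs and 21.5% to 45.1% in the HFCF pigs. The 45.1% was that of the third HFCF pig, which had the lowest FDPS of its group (14.5 FPKM) but an FDFT1 of only 3.84 FPKM. The share thus also depended on the other enzymes. The share of DHCR7 was 12.1% to 13.6% in the NC pigs and 3.29% to 8.86% in the HFCF pigs. SQLE was above 64.6% of the tested genes or more in each NC pig, and above 53.7%, 28.9% and 30.5% in the HFCF pigs.

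Ratios of neighbouring enzymes were taken within each library, on FPKM + 0.1. With LSS left out there were 6 such ratios, and the smallest p that an exact two-sided permutation test allows here, 3 pigs against 3, is 0.1. The log2 ratio of FDPS to IDI1 was -0.93, -0.95 and 0.28 in the NC pigs, against 1.01, 1.78 and 2.05 in the HFCF pigs. FDPS exceeded IDI1 in each HFCF pig but only in the third NC pig, with a mean difference of 2.15 (exact permutation p = 0.1, adjusted over the 6 ratios p = 0.3). The log2 ratio of SQLE to FDFT1 was -1.14, -0.59 and -1.52 in the NC pigs, against -2.89, -4.15 and -1.59 in the HFCF pigs, with no overlap and a difference of -1.79 (exact permutation p = 0.1, adjusted p = 0.3). The difference was -1.15 without the second HFCF pig. The third HFCF pig, with its low FDFT1, lay just outside the NC range. The other 4 ratios overlapped between the groups. That of MVD to HMGCS1 differed by only -0.01 on the log2 scale (exact permutation p = 1).

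**Figure D2:**
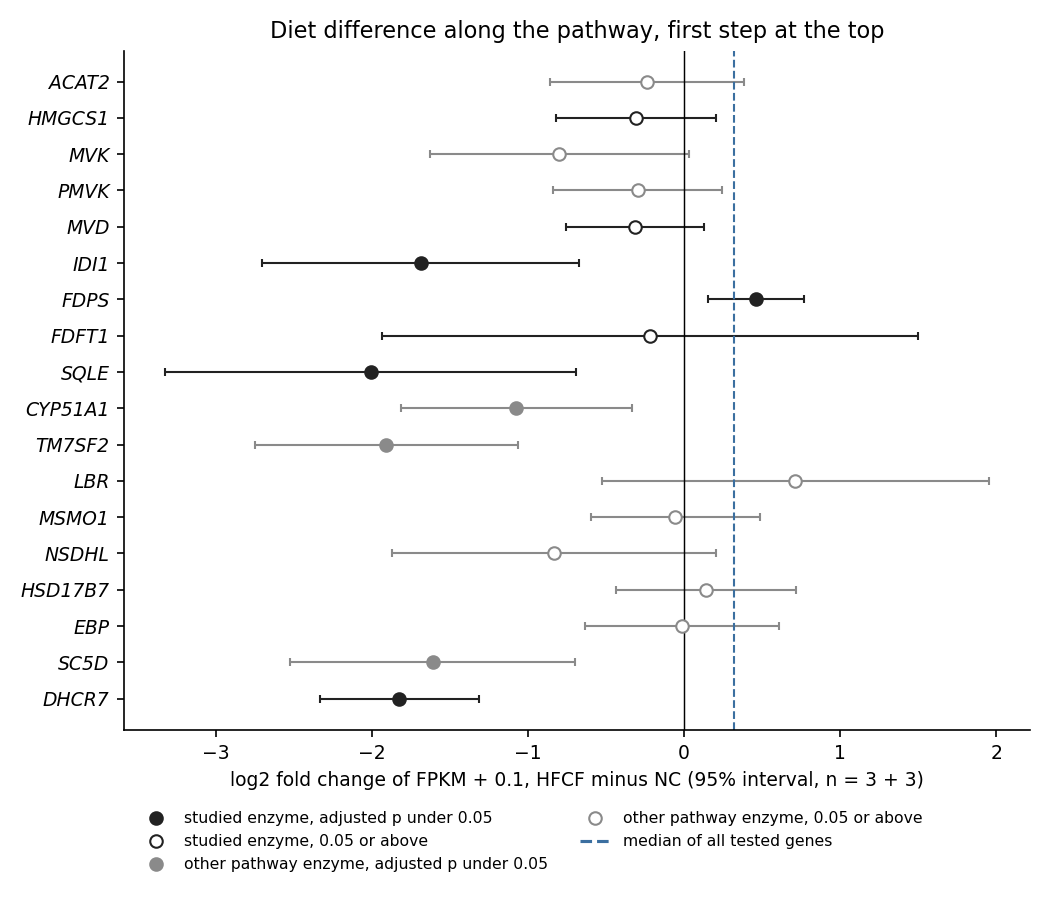
Log2 fold change (x axis, HFCF minus NC, on log2 of FPKM + 0.1) with its 95% interval from limma for 18 enzymes from ACAT2 at the top to DHCR7 at the bottom, black for the 7 studied enzymes and grey for the others, filled where the adjusted p is under 0.05. Filled points on the left are IDI1, SQLE, CYP51A1, TM7SF2, SC5D and DHCR7, and the dashed line marks the median of all tested genes at 0.32.

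The other enzymes of the pathway were read from a list of 11. In the HFCF group 3 were lower, 0 were higher and 8 did not pass the test, beside 6.16% lower and 22.8% higher among all genes, and the median log2 fold change was -0.30 beside 0.32. TM7SF2, a sterol reductase that acts on the ring, stood at 33.0, 39.7 and 23.6 FPKM in the NC pigs and 4.99, 12.7 and 9.02 FPKM in the HFCF pigs, and fell by 1.91 on the log2 scale (adjusted p = 0.0097, limma). Every HFCF pig lay below every NC pig, as in 12.1% of all tested genes, and the call was kept in 16 of 16 alternatives.

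LBR, a nuclear membrane protein that catalyses the same reduction as TM7SF2, went from 1.09, 1.72 and 1.67 FPKM to 5.50, 1.17 and 2.28 FPKM, with overlapping groups (log2 fold change 0.71, adjusted p = 0.342, limma). SC5D, the sterol desaturase that makes the substrate of DHCR7, fell from 4.55 ± 1.10 to 1.51 ± 0.71 FPKM (SD, n = 3 each; log2 fold change -1.61, adjusted p = 0.0217, limma), and lost its call without the first or second NC pig and with the block by replicate number (adjusted p = 0.0611). CYP51A1, the lanosterol demethylase, fell from 10.1 ± 4.35 to 4.51 ± 0.73 FPKM (log2 fold change -1.07, adjusted p = 0.041, limma), with a call that was lost in 8 of 16 alternatives, among them each library left out except the first NC pig. In both SC5D and CYP51A1 every HFCF pig lay below every NC pig, as in 12.1% of all tested genes.

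The kinases that phosphorylate mevalonate stepwise, MVK and PMVK, had log2 fold changes of -0.80 and -0.30 (adjusted p = 0.13 and 0.362, limma), and ACAT2, which supplies acetoacetyl-CoA, had -0.24. MVK stood at 1.74, 1.36 and 1.02 FPKM in the NC pigs and 0.84, 0.99 and 0.46 FPKM in the HFCF pigs. These groups did not overlap, as was so, with HFCF lower, in 12.1% of all tested genes. MVK passed after quantile normalization (-1.43, adjusted p = 0.025, limma). Of the demethylation complex that follows CYP51A1, NSDHL had -0.83 (adjusted p = 0.195, limma), MSMO1 -0.06 and HSD17B7 0.14, and EBP, the sterol isomerase, had -0.01. The signs of the last 3 and of ACAT2 turned under some alternatives. Together, 6 of the 18 enzymes were lower and 1 was higher, beside the same 6.16% and 22.8% of all genes. Both lists were chosen with earlier results of these data known, and no list test was made.

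Enzymes that use farnesyl diphosphate or its products outside sterols were read from a list of 12, of which 11 were analysed. In the HFCF group 2 were higher, 0 were lower and 9 did not pass the test. GGPS1, which extends farnesyl to geranylgeranyl diphosphate, stood at 0.33, 0.30 and 0.42 FPKM in the NC pigs and 1.06, 0.74 and 2.01 FPKM in the HFCF pigs (log2 fold change 1.51, adjusted p = 0.0294, limma). NUS1, a subunit of the dolichol-making enzyme, rose from 2.93 ± 0.64 to 5.48 ± 1.09 FPKM (SD, n = 3 each; log2 fold change 0.88, adjusted p = 0.0345, limma). The calls of GGPS1 and NUS1 were lost after median-ratio scaling, quantile normalization and rescaling to TPM and without most single libraries. The median log2 fold change over the list was 0.23, near the 0.32 of all genes, and 2 of 11 is close to the 22.8% of all genes that were higher.

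**Figure D3:**
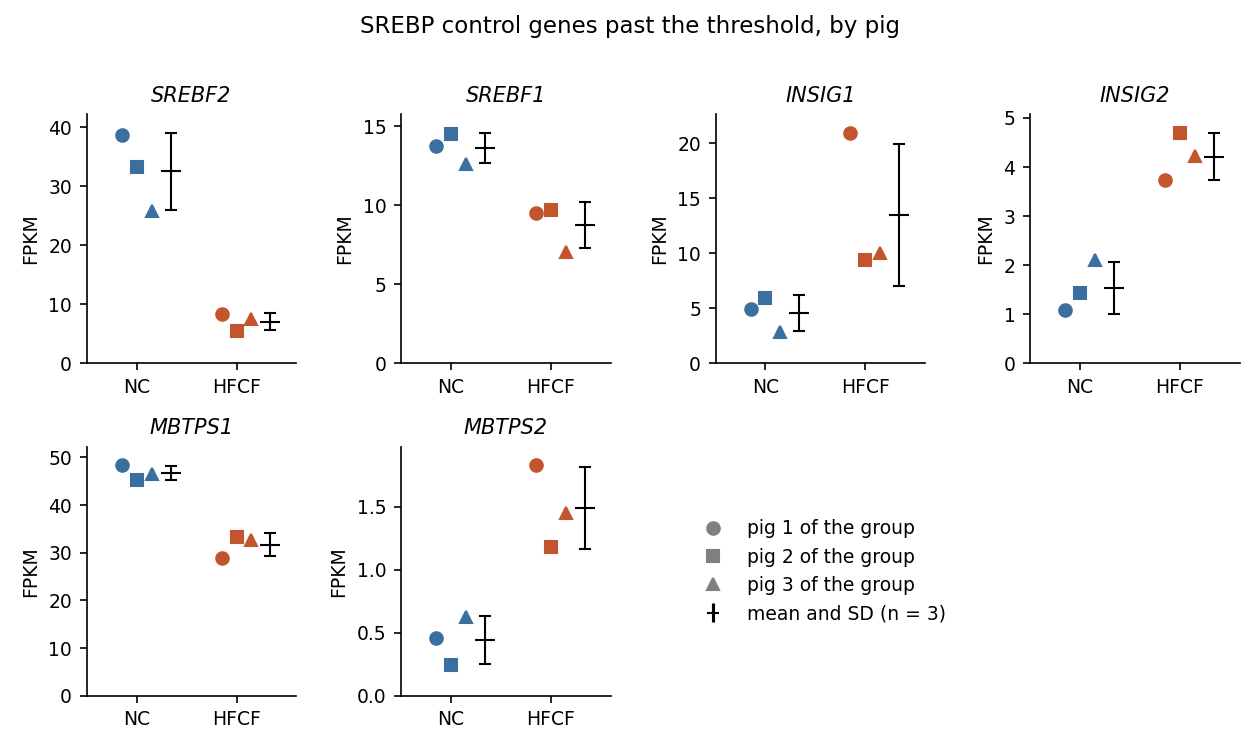
FPKM (y axis, linear and starting at 0) of the 6 genes of SREBP control with an adjusted p under 0.05, in each NC pig (blue) and HFCF pig (orange), with the mean and SD (n = 3) in black. All HFCF points lie below all NC points in SREBF2, SREBF1 and MBTPS1, and above them in INSIG1, INSIG2 and MBTPS2. The same held for 12.1% (below) and 36.1% (above) of all tested genes.

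Genes that control these enzymes, or share that control, moved in both directions. From a list of 10 measured genes, 8 were tested, and 3 were lower and 3 higher in the HFCF group, beside 6.16% and 22.8% of all genes. SREBF2, which encodes SREBP2, stood at 38.6, 33.2 and 25.7 FPKM in the NC pigs and 8.30, 5.46 and 7.48 FPKM in the HFCF pigs. The groups were far apart, and SREBF2 fell by 2.18 on the log2 scale (SE 0.22, adjusted p = 0.00151, limma). The call was kept in 16 of 16 alternatives.

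INSIG1, which anchors the SREBP complex in the endoplasmic reticulum and is itself a known target of SREBP2, went the other way. It stood at 4.97, 5.97 and 2.82 FPKM in the NC pigs and 20.96, 9.43 and 10.05 FPKM in the HFCF pigs, with a mean 2.94 times that of the NC pigs (adjusted p = 0.0284, limma). Its call was lost after median-ratio scaling, quantile normalization and rescaling to TPM and without NC pig 1, NC pig 3 or HFCF pig 1. INSIG2 rose from 1.54 ± 0.52 to 4.21 ± 0.48 FPKM (SD, n = 3 each; log2 fold change 1.44, adjusted p = 0.0104, limma). Of the proteases that release SREBP, MBTPS1 fell from 46.8 ± 1.52 to 31.6 ± 2.41 FPKM (log2 fold change -0.56, adjusted p = 0.0177, limma) and MBTPS2 rose from 0.45 ± 0.19 to 1.49 ± 0.33 FPKM (log2 fold change 1.59, adjusted p = 0.0182, limma). SREBF1, whose product acts mainly on fatty acid synthesis, fell from 13.6 ± 0.96 to 8.77 ± 1.48 FPKM (log2 fold change -0.64, adjusted p = 0.033, limma). INSIG2 lost its call only after quantile normalization, MBTPS1 only with the block by replicate number and without the first NC pig, MBTPS2 in 3 alternatives (quantile normalization, without the first NC pig and without the first HFCF pig), and SREBF1 in 7 of 16. The 2 that did not pass, named after their values were seen, were SCAP, the escort of SREBP (-0.02 on the log2 scale), and MYLIP, a ubiquitin ligase (0.14). The sign of either turned under some alternatives, to as far as 0.06 for SCAP and -0.21 for MYLIP. STARD4, a sterol carrier, had a mean under the filter, and NPC1L1, the intestinal sterol transporter, was listed at 0 in all 6 libraries.

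The third NC pig was lowest of its group in 5 of the 7 enzymes, IDI1, SQLE and DHCR7 among them. The same pig was lowest in 7 of 7 adipocyte, 7 of 7 endothelial, 8 of 8 fibroblast and 5 of 6 Schwann cell markers. In smooth muscle, macrophage and T cell markers it was lowest in 5 of 8, 2 of 9 and 0 of 8. In the HFCF group the lowest pig of the enzymes was the first in 1, the second in 3 and the third in 3. There the second pig was lowest in 7 of 7 adipocyte and the third in 7 of 7 endothelial markers. The 7 adipocyte markers measured summed to 209.2, 329.8 and 38.6 FPKM in the NC pigs and to 105.2, 73.8 and 96.0 FPKM in the HFCF pigs, and ADIPOQ, made by mature adipocytes, stood at 39.1, 59.9 and 1.22 FPKM and at 4.08, 0.30 and 4.04 FPKM. FABP4, a fatty acid carrier, made up most of the sum of the third NC pig, at 33.1 FPKM. None of the 7 passed the test between the groups. With the third NC pig alone as the NC group, the log2 fold change was -1.54 for DHCR7, -1.51 for SQLE and -0.80 for IDI1, values that come without a test. The sums of the macrophage and smooth muscle markers moved with diet as given above. The part of any of these cell types in the differences of the enzymes was not tested.

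**Figure D4:**
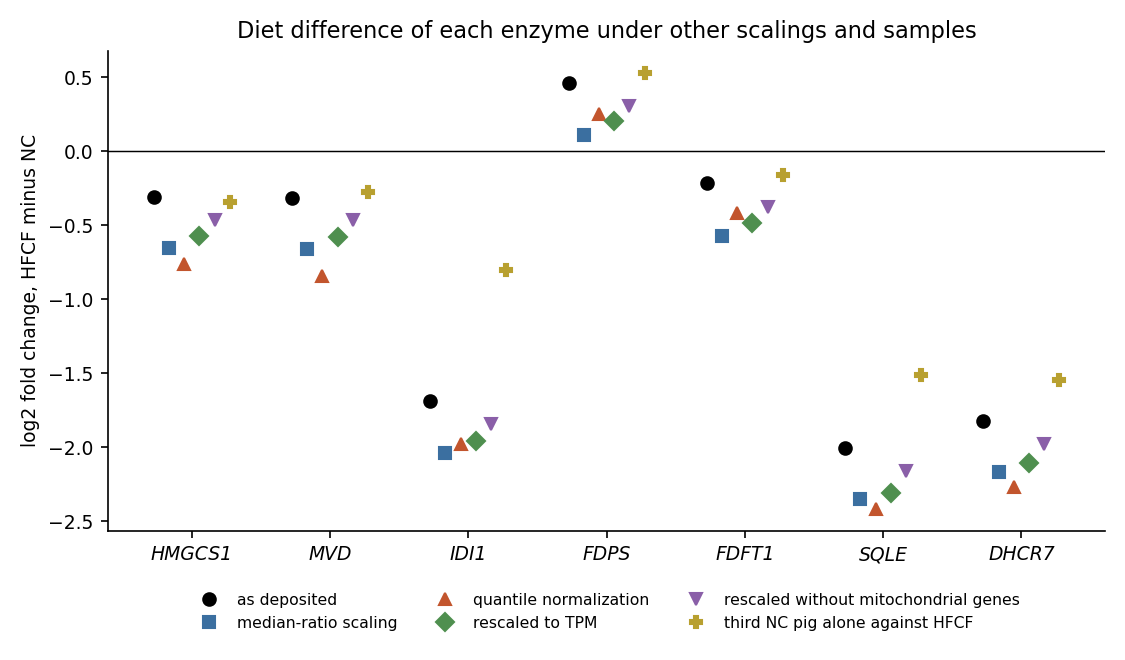
Log2 fold change (y axis, HFCF minus NC) of each of the 7 enzymes with the deposited values, under 4 other scalings, and with the third NC pig alone against the 3 HFCF pigs. IDI1, SQLE and DHCR7 stay below 0 and FDPS above 0 in each, and FDPS comes closest to 0 after median-ratio scaling (0.11). With the third NC pig alone these signs were fixed in advance, because the groups do not overlap in these genes.

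Under other scalings the enzymes moved down together with the median of all genes. Relative to that median, DHCR7 lay between -2.20 and -2.14 with the deposited values and the 4 scalings, SQLE between -2.40 and -2.33 and FDPS between 0.11 and 0.33. Genes whose pattern over the 6 libraries was most like the mean of the 7 enzymes were picked by the root mean square difference of the log2 values, each centred on its own mean, among 9563 genes with a mean of at least 1 FPKM. They were SNAI2, a transcriptional repressor (0.13), LMNA, a protein of the nuclear lamina (0.14), POLH, a DNA polymerase (0.15), DIAPH1, an actin-assembling formin (0.16), and POP5, a subunit of ribonuclease P (0.17), in log2 units. SNAI2 stood at 43.9, 44.2 and 31.6 FPKM in the NC pigs and 24.9, 23.3 and 17.1 FPKM in the HFCF pigs. The 7 enzymes themselves lay farther from their mean, from 0.40 (HMGCS1) to 0.81 (FDFT1). The genes found thus match an average that no single enzyme followed closely.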

How the data were processed

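Abdominal aorta RNA of 3 NC and 3 HFCF pigs was used, with 1 library per pig and groups taken from the sample titles. Per the labels and the methods, reads were trimmed with cutadapt 1.9, checked with FastQC, aligned with HISAT2 to the pig genome and assembled with StringTie, and the authors deposited FPKM values per gene. The methods name an earlier genome build than the gene identifiers of the table, so no coordinates or sequences are given. The methods give no read total per library. Relative depths were taken from the most frequent ratio between low values (under 0.3 FPKM) of single-transcript genes. They were 1 to 1.37 in the NC libraries and 1.03 to 1.07 in the HFCF libraries, with the first NC library set to 1. Only 2.35% to 4.85% of the ratios lay at the most frequent value, so these depths are rough. FPKM values summed to 272207 to 287141 and to 330222 to 338690. Absolute depth, and so the counting error of a value, is not known, and errors are the spread among pigs.

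A value of 0.0001 FPKM or less was read as 0. Log2(FPKM + 0.1) of the 15384 genes with a mean of at least 0.1 FPKM was fitted with limma 3.58.1 in R 4.3.3, with diet as the only factor and a variance trend, and p-values were adjusted by Benjamini-Hochberg over all tested genes. All 7 members passed the filter. Intervals are 95% intervals of that fit. The thresholds of the study, a fold above 2 or below 0.5 with an unadjusted p under 0.05, were an alternative, applied to the p of the limma fit. Rows without a symbol were named through their gene identifier (EBP, FNTB) or NCBI gene number (MBTPS2). Other settings tried were a pseudocount of 0.01 or 1, a mean of at least 1 FPKM or no filter, other scalings (TPM, median-ratio, quantile, and a total without mitochondrial genes), eBayes without a trend, a replicate block, the study's thresholds and each library left out. The enzymes and lists were chosen with earlier results of these data known. All 7 members and the tested genes of the reported pathway list are named, and of the other lists the genes past the threshold. Genes with a similar pattern were the 5 with the smallest difference. The deviations of same-numbered pigs showed no clear correlation, and the main fit did not pair the pigs. The fit was tested on simulated data. LSS is not analysed here, and some other genes of the pathway and its control are not reported here and were left out of the lists and their counts.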

Additional observations from a re-analysis of the deposited data

How the results depend on the processing

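With 3 pigs a group, only DHCR7 among the 7 enzymes kept its call in all 16 tested alternatives. The number of lower enzymes, 3, was 5 after quantile normalization and 1 to 3 with a library left out (1 without NC pig 1 or 2 or HFCF pig 2 or 3), and the number of higher enzymes, 1, was 0 with each of the 4 scalings, eBayes without a trend, the replicate block, the fold thresholds and every library left out (0 to 0). HMGCS1 (-0.76) and MVD (-0.84) passed after quantile normalization and MVD (-0.66) after median-ratio scaling. With a library left out the log2 fold changes ranged from -2.13 to -1.45 for IDI1, 0.43 to 0.50 for FDPS, -2.63 to -1.68 for SQLE and -0.85 to 0.72 for FDFT1. FDPS lost its call at 0.11 (median-ratio scaling), 0.25 (quantile normalization), 0.21 (TPM), 0.31 (rescaling without mitochondrial genes, added after the data were seen), and at its main value of 0.46 with eBayes without a trend and the replicate block. SQLE lost it, at -2.01, with no filter, eBayes without a trend and the replicate block. With the third NC pig alone, also added later, IDI1 was at -0.80 and DHCR7 at -1.545. In that fit 0 genes of 15384 passed in limma, and 3785 had an unadjusted p under 0.05, so it served for values only.

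Over all genes, 3505 higher and 948 lower became 2032 and 1968 (median-ratio scaling), 1748 and 1782 (quantile), 2229 and 1527 (TPM) and 2232 and 540 (replicate block), and 1961 to 2800 and 438 to 784 with a library left out (both lowest without NC pig 1). The cause was not tested. Among the other pathway enzymes the number lower, 3, was 1 with the replicate block, 1 to 2 with a library left out (1 without NC pig 2), 2 with no filter or with eBayes without a trend, and 4 after quantile normalization, where MVK passed (-1.43). Of the branch enzymes, the 2 higher became 0 with no filter, median-ratio scaling, quantile normalization or TPM. They became 1 with rescaling without mitochondrial genes and with the replicate block, and 0 to 1 with a library left out. The number was also 1 with a mean of at least 1 FPKM, where GGPS1 was under the filter and not tested. Of the SREBP control genes, the 3 higher became 0 after quantile normalization and the 3 lower became 1 with the replicate block, with 1 to 3 of each with a library left out (both lowest without NC pig 1, the first also without HFCF pig 1). HSD17B7 turned negative after median-ratio scaling (-0.21), quantile normalization (-0.28), TPM (-0.11) and rescaling without mitochondrial genes (-0.012), and with a library left out ranged from -0.026 to 0.35. Among the other pathway enzymes, signs also turned with a library left out in ACAT2 (-0.42 to 0.035), MSMO1 (-0.20 to 0.16) and EBP (-0.26 to 0.17). The ratio of MVD to HMGCS1 was 0.016 with a pseudocount of 1 and -0.14 to 0.17 with a library left out, that of SQLE to FDFT1 -2.43 to -1.15, that of FDFT1 to FDPS -1.31 to 0.24 and that of DHCR7 to SQLE -0.21 to 0.86.

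The labels number the pigs 1 to 3 in both groups. Correlations of the deviations from the group means of same-numbered pigs were 0.02, -0.08 and -0.07 across genes. Those of differently numbered pigs were -0.07 to 0.13. With 3 pigs a group such values cannot show whether same-numbered pigs were handled together. With the replicate block DHCR7 and IDI1 kept their calls.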

Other observations

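Enzymes that oxidize cholesterol or convert its oxidized forms were read from a list of 8, chosen after the data had been seen, of which 7 were tested. CYP27A1, the sterol 27-hydroxylase, was the only one past the threshold, beside 22.8% higher and 6.16% lower among all genes. It stood at 9.65, 12.9 and 10.8 FPKM in the NC pigs and 19.1, 19.7 and 19.9 FPKM in the HFCF pigs, a log2 fold change of 0.82 (SE 0.15, adjusted p = 0.00988, limma), with no overlap. CH25H, which makes 25-hydroxycholesterol, stood at 2.20, 2.01 and 1.18 FPKM in the NC pigs and 11.3, 3.52 and 1.39 FPKM in the HFCF pigs, with overlapping groups (adjusted p = 0.267, limma). CYP39A1 did not overlap between the groups, at 0.73 to 1.29 FPKM and 1.42 to 1.72 FPKM, and did not pass the test (adjusted p = 0.181, limma). Every HFCF pig lay above every NC pig in 2 of the 7, beside 36.1% of all tested genes. CYP7B1 (adjusted p = 0.202), HSD3B7 (0.775), CYP11A1 (0.266) and HSD11B1 (0.37) did not pass in limma either. CYP46A1 had a mean under the filter and was not tested.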
